A study of Mus musculus with 8 samples.

Results

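Regenerating mouse livers taken 48 hours after partial hepatectomy were compared by how strongly they cycled. Libraries were selected on Mki67, the gene of the proliferation marker Ki-67: 3 libraries with a normalized value above 400 are called strongly cycling and 4 with a value below 300 weakly cycling, which makes 7 of the 8 libraries of the series. Mki67 stood at 24.0 in control 1, at 49.5 and 268 in URI(+/D)Hep 5 and 3, and at 282 in control 2, the weakly cycling libraries. It stood at 468 in control 3 and at 469 and 586 in URI(+/D)Hep 1 and 4, the strongly cycling libraries. URI(+/D)Hep 2, at 333, belongs to neither set. The values just inside the limits are therefore 282 and 468. All values below follow this order, weakly cycling before strongly cycling.

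Both sets mix the labels. Controls are URI(+/+)Hep wild-type littermates, and URI(+/D)Hep mice had URI targeted in hepatocytes through a serum albumin CreERT2 line, which acts in albumin-expressing cells. Their label, +/D, keeps 1 wild-type allele. All mice had tamoxifen for 1 week and underwent surgery at 8 to 9 weeks of age. The sources used here do not give the strain or say whether controls carry the Cre line. The strongly cycling set holds 1 control and 2 URI(+/D)Hep libraries, and the weakly cycling set 2 and 2.

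Since the libraries were chosen by a measured value, every difference between the sets is a description of these 7 libraries, with no test. A gene is called apart when all 3 strongly cycling libraries lie above, or all below, the 4 weakly cycling ones. It is called apart by 2-fold when its mean log2(value + 1) also differs by at least 1. Differences are given as strongly minus weakly cycling on that log2 scale.

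The libraries held 3838674 to 4800694 reads each, and 3 reads correspond to 2.65 to 3.60 normalized reads, so values near that level are uncertain. The labels name liver as the tissue and epithelial as the cell type. The hepatocyte genes Alb, Ttr, Apoa1, Cps1 and Hnf4a were abundant in all 8 libraries, Hnf4a between 898 and 1332, and none was apart between the sets. Markers of endothelial, stellate, macrophage and other cells were also present, as in whole liver. In such bulk RNA, fewer cells of a type and less RNA per cell cannot be told apart. Uri1 stood at 468, 374 and 310.1 in controls 1, 2 and 3 and between 328 and 437 in the URI(+/D)Hep libraries, so it does not separate the labels. Whether the 3′ reads lie outside the deleted part was not tested. Between the sets Uri1 was apart and lower, at 374 to 468 against 310.1 to 354 (difference -0.34).

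Transcripts specific to a sex differ between the libraries and move with the sets. Xist stood at 9.59 in control 1 and 2.95 in control 2, both weakly cycling, and between 1217 and 2356 in the other 6 libraries. Summed over Uty, Kdm5d, Ddx3y and Eif2s3y, Y-linked transcripts came to 859 to 1558 in the weakly cycling libraries and to 3.54 to 798 in the strongly cycling ones, with the lowest sum in URI(+/D)Hep 1. Control 3 and URI(+/D)Hep 2, 3, 4 and 5 thus hold both kinds of transcript. The labels give neither sex nor pooling. Values among the 4 libraries of the sets that hold both kinds, namely control 3 and URI(+/D)Hep 4 against URI(+/D)Hep 3 and 5, are given beside many of the lists and genes below. These 4 are not matched for sex transcripts or label. Their Y-linked sums were 569 and 798 against 1002 and 859, and only control 3 carries the control label.

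After partial hepatectomy, hepatocytes that were quiescent enter the cell cycle, replicate their DNA and divide, while the remaining tissue keeps up metabolism and plasma protein secretion. Cyclin D1 marks the passage through G1, E2F factors and the MCM helicase serve S phase, and cyclin B1 with CDK1 drives mitosis. Promoters of many S phase genes carry E2F sites, and those of many mitotic genes carry a CHR element, bound by MuvB complexes, and CCAAT boxes, bound by NF-Y.

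The promoters of Mki67 itself and of 3 genes that followed it are printed to show these elements. They are the 120 bases before the annotated start in RefSeq's GRCm38.p6 table, a build other than the authors' GRCm39, all on the minus strand and written 5′ to 3′. Capitals mark matches to TTTGAA or TTCGAA, the CHR, and to CCAAT, on either strand (TTCAAA and ATTGG on the other). They lie at chr7:135716380-135716499 for Mki67, chr11:99024190-99024309 for Top2a, chr10:69352913-69353032 for Cdk1 and chr13:100786487-100786606 for Ccnb1.
Mki67: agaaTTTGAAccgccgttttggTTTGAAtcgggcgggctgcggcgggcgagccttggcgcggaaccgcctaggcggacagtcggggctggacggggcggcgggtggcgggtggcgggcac
Top2a: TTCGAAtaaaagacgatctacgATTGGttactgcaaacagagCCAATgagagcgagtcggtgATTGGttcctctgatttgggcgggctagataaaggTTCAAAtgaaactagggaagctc
Cdk1: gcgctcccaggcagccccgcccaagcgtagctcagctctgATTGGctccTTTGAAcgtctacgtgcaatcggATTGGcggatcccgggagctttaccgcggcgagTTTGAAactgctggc
Ccnb1: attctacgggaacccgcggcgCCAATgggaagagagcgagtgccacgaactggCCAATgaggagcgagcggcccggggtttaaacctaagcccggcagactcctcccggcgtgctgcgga

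Mki67, Top2a and Cdk1 each hold 2 CHR matches in this window, and Top2a, Cdk1 and Ccnb1 hold 3, 2 and 2 CCAAT matches. Over 250 bases before the start, a CHR match was present in 38.7% of the promoters of the G2 and mitosis genes that were higher by 2-fold, against 17.2% of all 32851 promoters in the table and 12.8% of those of the genes described. CCAAT was present in 65.3%, against 33.9% and 35.1%. E2F-like letters (GGCGCG, TTTCCCGC or TTGGCGC, either strand, of which the last can overlap the first) were present in 50% of the promoters of the S phase genes that were higher by 2-fold, against 17.4% and 30.3%. The same S phase promoters held a CHR match in 18.2% and CCAAT in 65.9%. The G2 and mitosis promoters held E2F-like letters in 33.9%. CCAAT was thus about as common in both classes. Genes higher by 2-fold outside the cell cycle lists had CHR in 14.9%, CCAAT in 36.9% and E2F-like letters in 19.1% of their promoters. Genes lower by 2-fold had them in 10.9%, 34.1% and 21.7%. Of the G2 and mitosis genes 115 of 142 matched the table, and of the S phase genes 37 of 47. Of the other higher genes 256 of 344 matched, and of the lower genes 294 of 432. A match is a description of letters and not of a bound site.

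Of 13704 genes, 1581 were apart and higher in the strongly cycling libraries (11.5%) and 1304 were apart and lower (9.52%). Apart by 2-fold were 532 higher genes (3.88%) and 432 lower genes (3.15%). The rule used this contrast, so nothing is read from these shares alone. Of the 532 higher genes, 188 belong to the S phase or G2 and mitosis lists. The other 344 do not, and they include Mki67 itself, which is on neither list. None of the 432 lower genes belongs to these lists. The median difference over all genes was 0.01. Among the 4 libraries with both kinds of sex transcript, 412 of the 532 and 323 of the 432 still differed by 2-fold. Since these 4 are among the 7 libraries, only the size of a difference could change there, and not its direction. Over all 13704 genes, 626 were higher and 590 lower by 2-fold among these 4. There only 2 libraries of each set must part, so counts are not on the same footing as those over the 7.

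Cell cycle genes moved with the gene that chose the libraries, which by itself supports nothing, and their values show how far the sets differ. Of 233 measured G2 and mitosis genes (240 listed), 142 were higher by 2-fold and 0 lower, with a median difference of 1.54. Of 77 measured S phase genes (78 listed), 47 were higher by 2-fold and 0 lower, with a median of 1.20. Top2a, the topoisomerase that disentangles chromosomes, read 61.2, 159, 563 and 602 in the weakly cycling libraries and 927, 1026 and 1064 in the strongly cycling ones. Control 1 and URI(+/D)Hep 5 are far below the other weakly cycling pair, which lies closer to the strongly cycling set. Ccnb1, cyclin B1, read 14.4, 9.89, 83.1 and 117 against 164, 171 and 145. Cdk1, its kinase, read 82.8, 63.3, 271 and 372 against 569, 579 and 469. Esco2, which acetylates cohesin in S phase, had one of the largest differences of its list at 3.01, from 3.6, 6.92, 60.9 and 87.6 to 178, 143 and 192.

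The replication genes repeated this order at smaller steps. E2f1, a transcription factor of S phase genes, read 54.0, 47.5, 145 and 197 against 314, 334 and 296. Mcm2, a subunit of the replicative helicase, read 14.4, 11.9, 27.1 and 35.4 against 74.0, 69.8 and 44.0. Pcna, the sliding clamp, was apart but under 2-fold (difference 0.60), from 53.4 to 92.6 against 105 to 126. Ccne2 was higher by 2-fold (1.56), whereas Ccne1 overlapped between the sets, with its highest value in control 1. Foxm1, a factor of mitotic genes, overlapped narrowly at 22.6 in control 2 and 22.5 in URI(+/D)Hep 4.

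G1 regulators were apart about as often as all genes. Of 13 measured members (15 listed), 1 was apart and higher and 1 apart and lower (7.69% each), near the 11.5% and 9.52% of all genes. By 2-fold 0 were apart, against 3.88% higher and 3.15% lower of all genes, and the median was 0.13. Ccnd1, cyclin D1, read 1317, 2760.3, 3535 and 2779 against 3914, 4742 and 3842, a difference of 0.76. Ccnd1 was thus abundant in URI(+/D)Hep 5, where Ccnb1 and Cdk1 were lowest. Ccnd3 was apart and lower (-0.50). Cdkn1a, the p21 inhibitor, overlapped between the sets and reached 631 in control 1 against 154 to 222 in the other 7 libraries. Myc did not pass the filter and stood at 22.8 in control 1 and at 4.68 to 8.84 elsewhere.

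**Figure D1:**
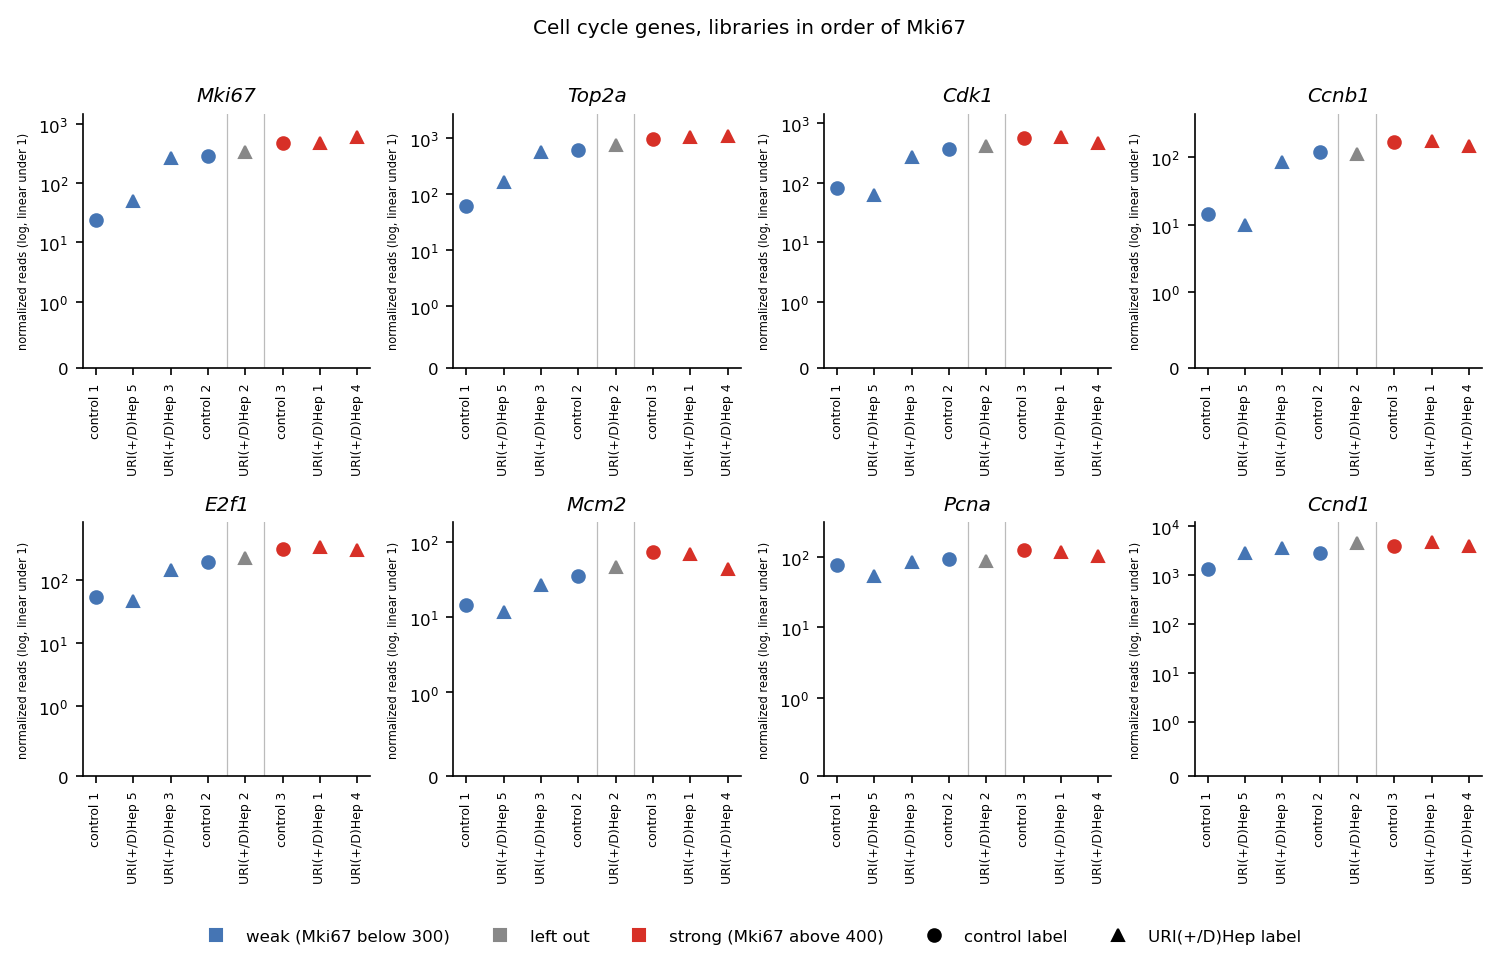
Normalized reads (vertical axis, logarithmic above 1 and linear below) of 8 cell cycle genes in each of the 8 libraries, placed in order of Mki67. Circles are control and triangles URI(+/D)Hep libraries, blue weakly cycling, grey left out, red strongly cycling. Top2a climbs from 61.2 in control 1 to 1064 in URI(+/D)Hep 4, while Ccnd1 spans only 1317 to 4742.

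Outside the cell cycle, many pericentral and cytochrome P450 genes were higher in the strongly cycling libraries. Of 27 measured pericentral genes (28 listed), 17 were apart and higher and 0 apart and lower, with a median of 0.98. By 2-fold 10 of the 17 were higher (37.0% of the list, against 3.88% of all genes). Of 40 measured cytochrome P450 genes (45 listed), 16 were higher by 2-fold (40%) and 0 lower, with a median of 1.13. Conjugating enzymes had 7 higher (20.6%) and 1 lower (2.94%, near the 3.15% of all genes) of 34 (43 listed, median 0.57). Bile acid synthesis and transport genes had 5 higher (20%) and 1 lower (4%, also near that share) of 25 (26 listed, median 0.53). Among the 4 libraries with both kinds of sex transcript the medians of these lists were 0.76, 0.81, 0.45 and 0.12 in the same order, the smallest for the bile acid list. By 2-fold 5, 15, 8 and 5 were higher there and 0, 1, 0 and 2 lower. These lists share members, such as Cyp2c29 and Cyp7a1, so they are not separate results. Control 1, which lacks Xist, was the lowest library of each list. The pericentral mean, centred over all libraries, was -1.52 there and -0.30, -0.07 and -0.23 in the other weakly cycling libraries. For cytochrome P450 genes it was -1.47 against -0.47, 0.03 and -0.22.

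Cyp7a1, the rate-limiting enzyme of bile acid synthesis, read 2.4, 47.5, 42.5 and 219.6 in the weakly cycling libraries and 958, 299 and 311 in the strongly cycling ones, a difference of 3.66. Control 1 was near the detection limit, and control 3 was the highest library. Cyp2c29, a pericentral P450, read 42.0, 138, 443 and 528 against 2670.3, 1265 and 919.9 (difference 2.91). Lgr5, the R-spondin receptor of cells near the central vein, read 25.2, 69.2, 109 and 80.7 against 207, 299 and 160.2. Glul, glutamine synthetase of the same cells, read 495, 1668, 1358 and 1283 against 2130, 2529 and 2093. For Glul and Lgr5 the single lowest library was control 1, and the other 3 weakly cycling libraries lay close together. Axin2, a general WNT target, overlapped between the sets.

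Akr1c6, Akr1d1 and Slco1a1 of the bile acid list and Ugt2b1 of the conjugating list were among the higher genes. Akr1c6, a hydroxysteroid dehydrogenase, read 36.0, 372, 903 and 907 against 2235, 2637 and 1957. Akr1d1, the steroid 5-beta-reductase of bile acid synthesis, read 122, 115, 189 and 187 against 330.4, 435 and 434, which are tight within each set. Slco1a1, an organic anion transporter, read 10.8, 35.6, 39.6 and 20.7 against 202, 157 and 96.5. Ugt2b1, a glucuronosyltransferase, read 32.4, 19.8, 108 and 85.7 against 231, 317 and 243. Slco1a1 and Ugt2b1 are on the male-biased list too. Reads of such gene families can be shared between near-identical copies, so single members of the Cyp2c, Ugt2b and Akr1c families are uncertain.

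Many of these enzymes differ between the sexes, and the sets differ in sex transcripts. Of 29 measured female-biased liver genes, 8 were higher by 2-fold and 0 lower, with a median of 1.45 over the 7 libraries, 1.98 within the controls and 0.61 within URI(+/D)Hep. Among the 4 libraries with both kinds of transcript it was 0.44. Of 21 measured male-biased genes (25 listed), 2 were higher and 3 lower by 2-fold, with a median of 0.45 that was -0.17 within the controls and 0.93 within URI(+/D)Hep. Among the 4 libraries with both kinds of transcript it was 0.68, with 9 higher and 3 lower by 2-fold. Over all 13704 genes, 626 were higher and 590 lower among these 4, where fewer libraries must part. Cyp2a4, a female-biased steroid hydroxylase, read 112, 284, 871 and 659.7 against 1048, 2404 and 1519. Hao2, a peroxisomal hydroxyacid oxidase on the female-biased list, read 0, 0, 2.9 and 0 against 32.2, 15.9 and 13.1, with all weakly cycling values at or under the 3-read level. The part of sex in the differences was not tested.

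Most members of the lipid and glucose lists were not apart by 2-fold. Of 38 measured genes of fatty acid synthesis and lipid droplets (39 listed), 9 were lower and 1 higher by 2-fold, and the list's median was only -0.08. Of 43 measured genes of fatty acid oxidation and PPARA targets (44 listed), 5 were lower and 0 higher (median -0.26, but 0.14 within controls and -0.51 within URI(+/D)Hep). Of 34 measured genes of glucose output and glycolysis (35 listed), 5 were lower and 1 higher (median -0.20). Cholesterol synthesis was lower as a list, with 10 of 23 measured members (24 listed) lower by 2-fold, 0 higher and a median of -0.99. Among the 4 libraries with both kinds of sex transcript its median was -0.76.

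Single genes of glucose and lipid metabolism stood apart in both directions. Angptl8, a feeding-induced secreted inhibitor of lipoprotein lipase, read 3.6, 33.6, 34.8 and 85.7 against 168, 217 and 209.8. Srebf1, the factor that drives fatty acid synthesis, read 68.4, 58.4, 57.0 and 111 against 141, 251 and 221. Both genes were higher by 2-fold, yet Fasn, the fatty acid synthase, overlapped (difference 0.28).

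Cidec, Plin2, Hilpda and Mfsd2a were lower by 2-fold. Cidec, which fuses lipid droplets into larger ones, read 962, 521, 556 and 376 against 15.0, 7.07 and 8.43, a difference of -5.74. All 5 libraries outside the strongly cycling set were high, and the nearest libraries of the 2 sets still differed by -4.56. Plin2, a coat protein of droplets, read 6624, 4149, 3295 and 3293 against 1626, 1431 and 1229.9. Hilpda, an inhibitor of droplet lipolysis, read 1802, 642, 656 and 673 against 219, 127 and 138. Mfsd2a, a transporter of lysophosphatidylcholine, read 2491, 1524, 1478 and 1037 against 216, 187 and 136. In each of these 4 genes the gap between the sets, 1.02 or more in log2, was wider than the spread within either.

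Igfbp1, Pdk4, Ppargc1a and Apoa4 were lower by 2-fold as well. Igfbp1, an insulin-repressed binding protein of insulin-like growth factors, read 5265, 2221, 2253 and 2635 against 560.0, 338 and 472. Pdk4, the kinase that shuts off pyruvate dehydrogenase, read 245, 102, 112 and 77.8 against 15.0, 10.6 and 8.43. Ppargc1a, a coactivator of gluconeogenic and oxidative genes, read 380.2, 619, 548 and 306 against 121, 171 and 171. Apoa4, an apolipoprotein of secreted lipid particles, read 2253, 1756, 1669 and 2051 against 490.3 to 536. Control 1 was the highest library for Igfbp1, Pdk4 and Apoa4 but not for Ppargc1a. Among the 4 libraries with both kinds of sex transcript Cidec, Mfsd2a, Pdk4 and Igfbp1 differed by -5.46, -3.12, -3.13 and -2.12.

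**Figure D2:**
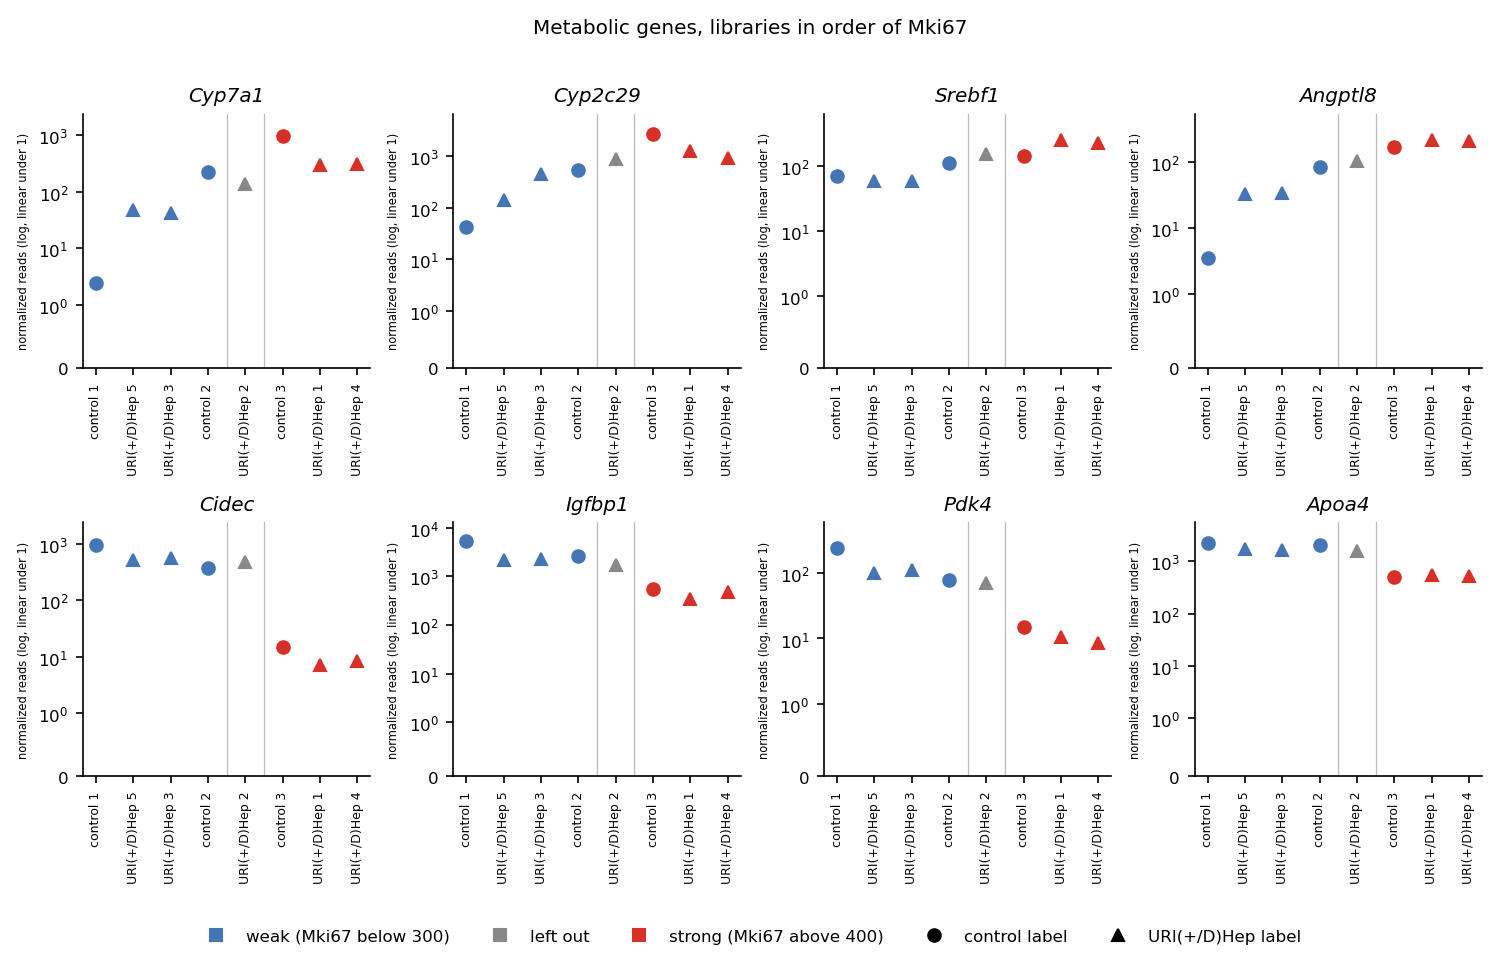
Normalized reads (vertical axis, logarithmic above 1 and linear below) of 8 metabolic genes in each library, placed in order of Mki67, with circles for control and triangles for URI(+/D)Hep libraries and the colours of the sets. Cyp7a1, Cyp2c29 and Angptl8 are lowest in control 1 and highest in the strongly cycling libraries, whereas Cidec stays between 376 and 962 in the weakly cycling and left-out libraries and drops to 7.07 to 15.0 in the strongly cycling ones.

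Large lower differences were present in genes of varied function. Dlgap2, known as a postsynaptic scaffold, read 1698, 1188, 1341 and 811 against 31.1, 10.6 and 22.5 (difference -5.89). Gml, of the Ly6 family, read 129.5, 51.4, 29.0 and 44.3 and was listed at 0 in all 3 strongly cycling libraries. Adra2a, an adrenergic receptor, read 26.4, 44.5, 39.6 and 34.5 against 2.15, 0 and 1.87. Cacna1b, a calcium channel subunit, read 297, 101, 95.7 and 34.5 against 2.15, 5.3 and 3.75. Cib3, a calcium and integrin binding protein, read 92.3, 16.8, 7.73 and 19.7 against 1.07, 0 and 0. Sult1e1, the estrogen sulfotransferase and so a steroid-metabolizing enzyme, read 1564 in control 1 and 77.3 to 113 in the other weakly cycling libraries, against 3.22 to 17.7 (difference -4.62). Chil3 and Cdh17, which were lower too, are described with their cell type lists. For the 6 genes given here the strongly cycling libraries lie far below every weakly cycling one, at or near the 3-read level for Gml, Adra2a, Cib3 and Cacna1b.

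Of 32 measured mitogens and receptors (34 listed), 6 were apart and higher and 6 apart and lower. By 2-fold 1 was higher, near the 3.88% of all genes, and 3 were lower (median -0.20). Hgf, the hepatocyte growth factor, was apart and lower, at 213, 240.3, 285 and 223 against 127, 160.0 and 182. Met, its receptor, was apart and higher by a small step, at 380.2 to 459 against 497 to 527. Igfals, a plasma carrier of insulin-like growth factors, read 81.6, 160.2, 286 and 387 against 703, 565 and 429, and Ghr, the growth hormone receptor, was apart with a difference of 0.97. The activin subunits parted: Inhba was higher, at 115 to 314 against 442 to 501, and Inhbb lower, at 51.2 to 94.7 against 13.9 to 27.2. Of 29 TGF-beta and activin genes, 1 was higher, again near the share of all genes, and 3 were lower by 2-fold (median -0.23).

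A minority of priming and injury genes were lower. Of 16 measured genes of interleukin 6 and STAT3 priming (17 listed), 7 were apart and lower, 2 of them by 2-fold, and 0 apart and higher (median -0.29). The median was -0.10, with 0 lower by 2-fold, among the 4 libraries with both kinds of sex transcript. The immediate early list had 6 apart and lower, 3 of them by 2-fold, and 0 higher of 18 measured (23 listed, median -0.27). Acute phase genes had 5 apart and lower, 3 of them by 2-fold, and 0 higher of 28 (29 listed, median -0.35 over the 7 libraries and 0.04 among the 4 with both kinds of sex transcript). Ier3, an early response gene, read 1908, 338, 444 and 1125 against 194, 160.0 and 134. Osmr, the oncostatin M receptor, read 325, 144, 159 and 233 against 116, 80.4 and 111. In both genes controls 1 and 2 were the highest libraries, a pair that also lacks Xist.

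Fetal, stress and plasma protein genes went in both directions. Of 10 measured fetal liver genes (17 listed), 3 were lower and 0 higher by 2-fold (median -0.70). Afp, alpha-fetoprotein, read 107, 46.5, 26.1 and 102 against 16.1, 15.9 and 8.43. Mt1, a metallothionein, read 12890.0, 5120.1, 4114 and 8038 against 3561, 1892 and 1811, and the left-out library was on the strongly cycling side at 1982. Heat shock chaperones leaned the other way, with 6 apart and higher, 2 of them by 2-fold, and 0 lower of 18 (20 listed, median 0.39). Hsph1, a co-chaperone, read 80.4, 184, 160.4 and 199.9 against 296, 337 and 297. Coagulation and complement genes had 4 higher and 0 lower by 2-fold of 31 (32 listed, median 0.23), among them C9, the last component of the membrane attack complex, at 405 to 849 against 1168 to 1564. Of 28 measured interferon response genes (30 listed), 8 were apart and higher (median 0.63). By 2-fold 1 of them was higher (3.57%, near the 3.88% of all genes). In the 4 libraries with both kinds of sex transcript 12 were higher and 1 lower by 2-fold (median 0.73). There fewer libraries must part, and 626 of all 13704 genes were higher and 590 lower.

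Several large housekeeping groups did not part by 2-fold. Of 73 measured ribosomal protein genes, 47 ribosome biogenesis genes, 31 proteasome subunits, 46 oxidative phosphorylation genes and 9 mitochondrially encoded transcripts, 0 were apart by 2-fold in either direction. Their medians lay between -0.15 and 0.03 over the 7 libraries, and the ribosomal protein median, -0.13, was 0.11 among the 4 with both kinds of sex transcript. Apart at any size were 5 ribosome biogenesis genes, all lower (10.6%, near the 9.52% of all genes). So were 1 ribosomal protein gene, higher, and 1 proteasome subunit and 1 oxidative phosphorylation gene, both lower. The 27 measured nucleotide synthesis genes had 0 apart by 2-fold as well (median 0.08). At any size 4 of them were apart and higher (14.8%, against 11.5% of all genes) and 1 apart and lower.

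**Figure D3:**
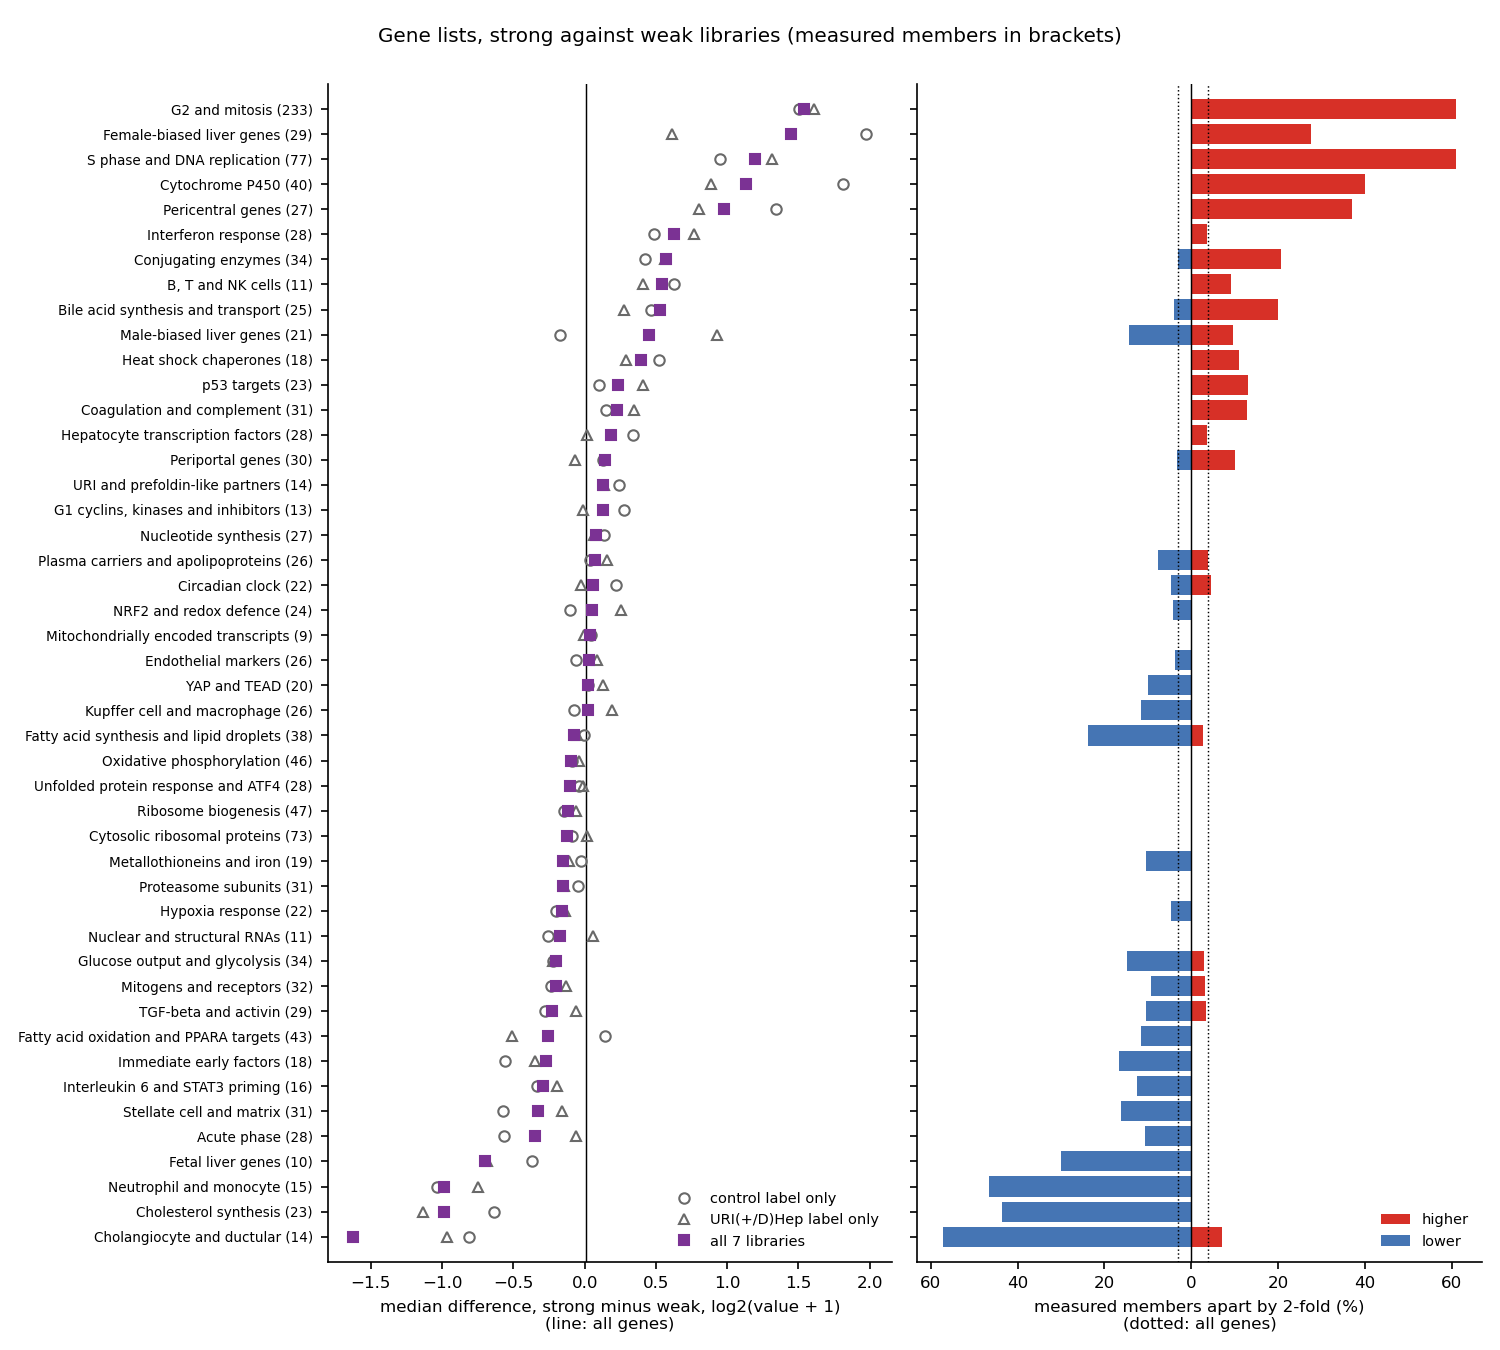
Gene lists in order of their median difference between strongly and weakly cycling libraries (left, log2 scale, squares for all 7 libraries, circles within controls, triangles within URI(+/D)Hep, line at the median of all genes) and the share of measured members apart by 2-fold (right, percent, red higher, blue lower, dotted lines at the shares of all genes, 3.88% and 3.15%). Sex chromosome transcripts are not drawn. G2 and mitosis leads at a median of 1.54, and the cholangiocyte list ends at -1.63.

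Markers of cholangiocytes, of neutrophils and of stellate cells included several that were lower, while other cell type lists had few. Of 14 measured cholangiocyte and ductular genes (22 listed), 8 were lower and 1 higher by 2-fold (median -1.63), while Krt19 and Krt7, defining markers of bile ducts, did not pass the filter. The summed level of the list ran from 1821 to 5368 in the weakly cycling and from 1453 to 1937 in the strongly cycling libraries. URI(+/D)Hep 5 stood out: Epcam, an epithelial adhesion protein, read 28.8, 525, 30.0 and 27.6 against 15.0, 7.96 and 12.2, and Cdh17, a cadherin, read 532 in URI(+/D)Hep 5 and 4.83 to 37.2 in the other weakly cycling libraries. Without URI(+/D)Hep 5 the list's median was -1.06, and among the 4 libraries with both kinds of sex transcript it was -1.32. Sox9, a ductal and progenitor factor, instead was highest in controls 1 and 2, at 1140.5, 152, 175 and 631 against 121, 131 and 108. Prom1 went against its list, at 25.2 to 92.0 against 167 to 432.

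Of 15 measured neutrophil and monocyte genes (24 listed), 7 were lower and 0 higher by 2-fold (median -0.99). Of the same genes 3 were lower among the 4 libraries with both kinds of sex transcript (median -0.51). Ly6g, Mpo, Ngp, Camp and Ltf did not pass the filter. The summed level of the list was 9168 to 13864 against 8500 to 10634, which overlap. S100a8, a neutrophil calcium-binding protein, read 415 to 564 against 122 to 272. Chil3, a chitinase-like protein of myeloid cells, read 139, 32.6, 33.8 and 139.8 against 0.884 to 1.07, or 1 read in each strongly cycling library. Stellate cell and matrix genes had 5 lower and 0 higher of 31 (34 listed, median -0.33), with summed levels of 9050 to 11386 against 8343 to 8886. Pdgfra, a receptor of stellate cells, read 140.3, 99.9, 85.1 and 89.6 against 52.6, 44.2 and 40.3. Kupffer cell and macrophage genes had a median of 0.02 and overlapping sums, with 3 lower and 0 higher by 2-fold of 26. At any size 4 were apart and higher and 5 apart and lower. Timd4 was higher under 2-fold (difference 0.96), at 78.0, 113, 120 and 153 against 165, 268 and 240. Gpnmb, a glycoprotein of activated macrophages, read 215, 43.5, 58.0 and 270 against 8.58, 6.19 and 6.56, and Spp1, osteopontin, read 458, 122, 122 and 377 against 97.6, 112 and 90.9. Endothelial genes had a median of 0.03, overlapping sums, and 1 lower (3.85%, near the 3.15% of all genes) and 0 higher of 26. B, T and NK cell genes had 1 higher and 0 lower of 11 measured (32 listed, median 0.54, and 0.14 among the 4 libraries with both kinds of sex transcript), with sums of 203 to 585 against 443 to 707. The part of these cells in the other differences was not tested.

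URI(+/D)Hep 2, which the rule did not place, was set against both sets for every gene apart by 2-fold. For the 188 higher cell cycle genes, it lay between the sets in 105, within or below the weakly cycling range in 52 and within or above the strongly cycling range in 31. Counting from the weakly cycling mean (0) to the strongly cycling mean (1) in log2, its median position was 0.74, with quartiles of 0.63 and 0.83. For the 344 other higher genes the median position was 0.68. For the 432 lower genes it was 0.32, with 214 on the weakly cycling side, 158 between and 60 on the strongly cycling side. These positions depend on the weakly cycling mean, which control 1 and URI(+/D)Hep 5 lower for the cell cycle genes. The left-out library lay on the weakly cycling side more often than on the strongly cycling side for the other higher genes too, in 100 against 94.

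Single genes differed in where it lay. For Top2a the left-out library read 752 and for E2f1 229, both between the sets. For Cidec it read 477, for Dlgap2 1041, for Mfsd2a 1229 and for Adra2a 43.5, all within the weakly cycling range. Igfbp1 at 1748, Pdk4 at 72.2 and Plin2 at 2794 lay between the sets but just below the weakly cycling range. Cyp7a1 at 139 was within the weakly cycling range, Osmr at 86.1 within the strongly cycling one, and Lgr5 at 232 within the strongly cycling one.

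**Figure D4:**
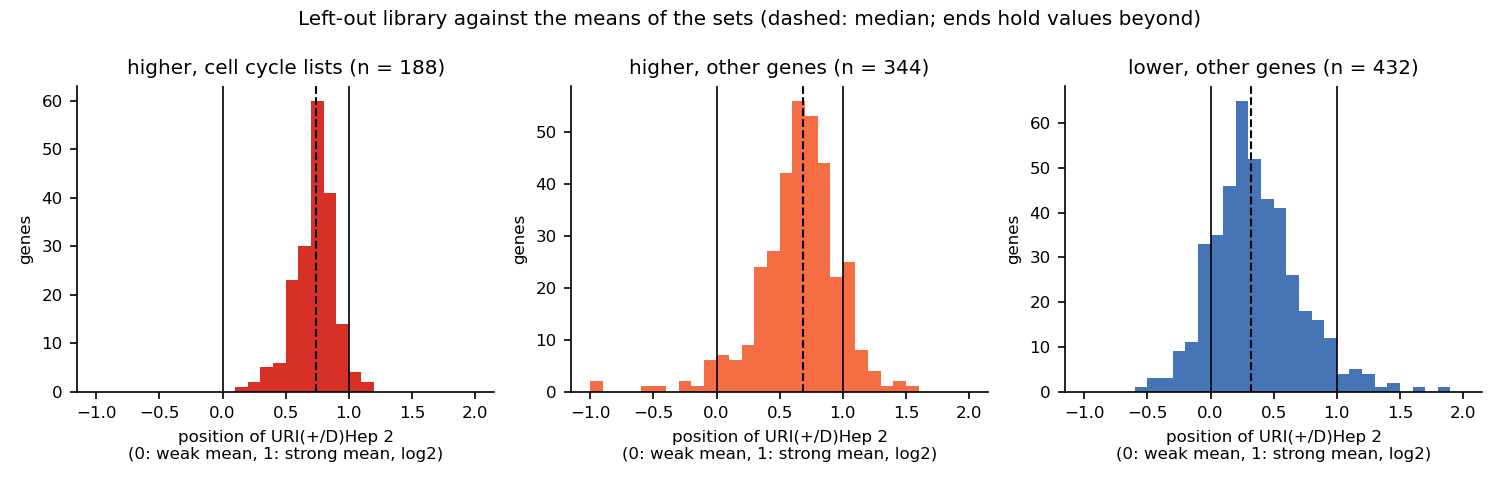
Position of URI(+/D)Hep 2 for every gene apart by 2-fold (horizontal axis, 0 at the weakly cycling and 1 at the strongly cycling mean of log2 values; vertical axis, number of genes), in 3 panels for 188 higher cell cycle genes, 344 other higher genes and 432 lower genes. Dashed lines mark medians of 0.74, 0.68 and 0.32.

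Gaps between the sets were more often wide among lower genes. A gap of at least 1 in log2 between the nearest libraries of the sets was present in 90 of the 432 lower genes (20.8%), in 23 of the 344 other higher genes (6.69%) and in 6 of the 188 cell cycle genes (3.19%). Among the 90 lower genes the left-out library was on the weakly cycling side in 43, between in 45 and on the strongly cycling side in 2, Duox2 and A2m. Relative to the strongly cycling mean, the median cell cycle gene stood at -2.83 in control 1 and URI(+/D)Hep 5 but at -0.85 in URI(+/D)Hep 3 and control 2 and at -0.46 in the left-out library. The median lower gene stood at 1.60, 1.28 and 0.96 in the same 3 positions, a smaller spread across the weakly cycling libraries. When control 1 and URI(+/D)Hep 5 were left out of the weakly cycling set, 234 genes were higher by 2-fold, 182 of them among the 532, whereas 447 were lower, 340 of them among the 432. With URI(+/D)Hep 2 counted as weakly cycling, 346 were higher and 326 lower, and with it counted as strongly cycling, 343 and 185.

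The difference between the sets can be taken within each label, and these 2 differences share no library: control 3 against controls 1 and 2, and URI(+/D)Hep 1 and 4 against 3 and 5. They had the same sign in 8842 of 13704 genes (64.5%), and in 299 of 309 cell cycle genes (96.8%). Both were at least 2-fold in the same direction for 421 higher and 301 lower genes, and in opposite directions for 33. Outside the cell cycle lists, 245 higher genes, Mki67 among them, and 301 lower genes met this. Within both labels Y-linked sums were lower in the strongly cycling libraries. They came to 569 against 1558 and 1311.5 in controls, and to 3.54 and 798 against 1002 and 859 in URI(+/D)Hep. The part of sex in the shared differences was not tested. Cidec differed by -5.23 within controls and -5.95 within URI(+/D)Hep, Dlgap2 by -5.19 and -6.26, and Igfbp1 by -2.73 and -2.48. Cyp7a1 differed by 5.13 and 2.74 and Cyp2c29 by 4.15 and 2.12, both larger within the controls, where the pair set against control 3 lacks Xist. These differences between labels were not tested.

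**Figure D5:**
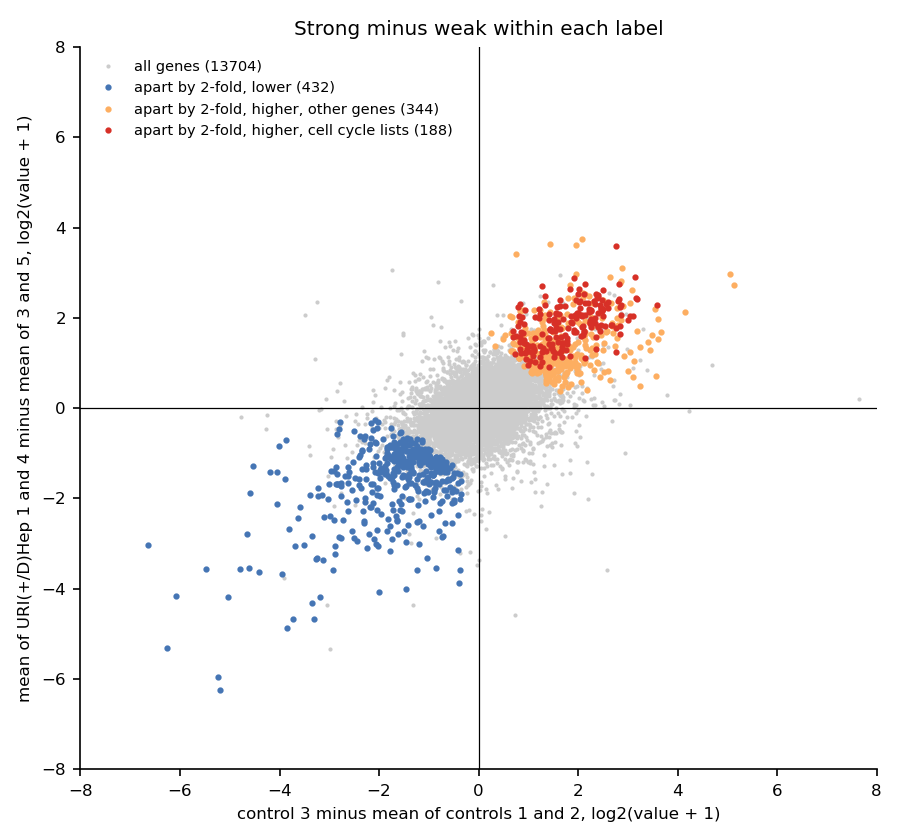
Difference between strongly and weakly cycling libraries for each of 13704 genes within controls (horizontal axis) and within URI(+/D)Hep (vertical axis), both on the log2(value + 1) scale, with genes apart by 2-fold coloured. Since those genes were picked from the same libraries, their place at the upper right and lower left follows from the choice, and the grey genes fall on all sides.

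The genotype label did not choose the libraries, so it can be tested with the set held fixed, although the set is itself measured in these livers. limma with a term for the set, over the 7 libraries, called 0 genes higher (0%) and 1 lower (0.0073%) in URI(+/D)Hep at an adjusted p under 0.05. At an unadjusted p under 0.05 it counted 1055 higher and 1205 lower genes. The 1 call was Tuft1, which encodes tuftelin, at 318, 387 and 249.97 in controls 1, 2 and 3 and between 77.7 and 110.2 in the 5 URI(+/D)Hep libraries. Its log2 difference was -1.75 (SE 0.14, limma adjusted p = 0.0195), and all 4 URI(+/D)Hep libraries of the fit lay below all 3 controls. The call was lost without control 2, control 3 or any 1 URI(+/D)Hep library (adjusted p from 0.0525 to 0.194) and with no set term on the 7 libraries (0.0831), but not with no set term on all 8 (0.0333), while the difference stayed between -1.82 and -1.67 over these settings. Next were Cyp4a12a, a male-biased fatty acid hydroxylase (log2 difference -3.50, limma adjusted p = 0.054), and Rps4l, a paralogue of a ribosomal protein gene (-1.16, limma adjusted p = 0.054), which did not pass. Cyp4a12a read 155 and 132 in controls 1 and 2, which lack Xist, and 0.937 to 18.2 elsewhere. Cidec did not pass for the genotype within the sets (limma adjusted p = 0.51). Nothing in the labels says that these libraries come from separate animals, so the p-values measure the spread between libraries.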

How the data were processed

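The 8 libraries were made from total RNA by oligo-dT priming with a 6 nt molecular identifier, per the labels' protocols. The deposited table holds normalized signal for 19055 gene symbols, that is, the authors' read counts divided by a size factor. Tools named by the submitters' processing notes are bcl2fastq, featureCounts and DESeq2, with the build GRCm39. Aligner, annotation and identifier use were not given in the sources used here. Dividing by each library's smallest value gave whole reads for 100% of the values (tolerance 1e-06), which gives the depth.

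The 13704 genes that reached 10 in 3 or more libraries were described on log2(value + 1), which understates differences of low genes. Sets were formed from Mki67 as stated, and nothing between them was tested. Genotype within the sets was tested with limma 3.58.1 in R 4.3.3 (mean-variance trend, Benjamini-Hochberg, two-sided). On the recovered reads, edgeR 4.0.16 called 0 genes higher and 4 lower, and DESeq2 1.42.0 called 41 and 74. The limma fit was tested on simulated data. Tables used Python 3.11.15 with pandas 2.3.3.

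The members, the 47 gene lists and the tests were chosen with earlier results of these data known. Genes named are 20 picked by name, the 10 per direction with the largest difference outside the cell cycle lists and with a mean of at least 20, and up to 4 apart members per list. Mfsd2a, Glul, Axin2, Srebf1, Fasn, Sox9, Duox2, Eif2s3y, Tuft1, Cyp4a12a, Rps4l and the filtered markers fall outside this rule. They were chosen after seeing their values, as was the gap of at least 1. Members of the cholesterol synthesis list and some other single genes are not reported here. Alternatives were other pseudocounts (0.5 and 8), filters and scalings, other limits on Mki67, single labels, and leaving out each library. The comparison of libraries with both Xist and Y-linked transcripts was added after seeing the data. RefSeq promoters (GRCm38.p6) were matched by symbol.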

Additional observations from a re-analysis of the deposited data

Results flagged for a closer look

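Over the mean centred levels of 47 gene lists in the 5 URI(+/D)Hep libraries, 1 library stood apart in each of 3 lists by Dixon's criterion, which chance gives in about 1 list in 20. URI(+/D)Hep 1 stood apart for the hepatocyte transcription factors (0.148) and for the sex chromosome transcripts (-4.26), where the Y-linked reads are near 0. URI(+/D)Hep 5 stood apart for the cholangiocyte and ductular list (1.63), the library with the high Epcam and Cdh17.

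For 5 lists the strongly cycling libraries lay on opposite sides of the weakly cycling ones in the 2 labels. The differences, controls before URI(+/D)Hep, were 0.0564 and -0.115 for mitochondrially encoded transcripts, -0.193 and 0.166 for NRF2 and redox defence, 0.164 and -0.0899 for the circadian clock, 0.513 and -2.74 for sex chromosome transcripts, and -0.372 and 0.221 for nuclear and structural RNAs. The sex chromosome list mixes Xist, which differed by 7.65 within controls and 0.20 within URI(+/D)Hep, with 4 Y-linked genes. Of these, Uty differed by -1.46 and -4.00, and Ddx3y and Kdm5d were likewise lower within both labels. The difference between labels was not tested.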

How the results depend on the processing

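Against 532 higher and 432 lower genes, a pseudocount of 8 gave 287 lower, no filter 815 lower and a mean of at least 50 gave 328 and 194. With URI(+/D)Hep 2 counted as strongly cycling the counts were 343 and 185, and with it as weakly cycling 346 were higher. A weakly cycling set of the 2 libraries under 100 gave 994 and 662, one without them 234 higher, and the control label alone 933 and 739. Without replicate 1, 2, 3, 4 or 5 of either label in turn the counts were 402 to 714 higher and 451 to 524 lower. The median of the fatty acid synthesis and lipid droplet list, -0.08, was 0.0262 with the 2 libraries under 100, between -0.127 and 0.0648 when each library was left out in turn, above 0 without URI(+/D)Hep replicate 1 or control replicate 2, and 0.0350 among libraries with both Xist and Y-linked transcripts. There the hepatocyte transcription factor list turned from 0.19 to -0.00417. The cause was not tested.

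The genotype calls within the sets, 0 higher and 1 lower, were 0 and 0 with no set term on 7 libraries, 0 and 2 on all 8, 64 and 105 with log2 Mki67 as a covariate, 0 and 2 with no filter, 0 and 3 after TMM recentring, 0 and 4 by edgeR and 41 and 74 by DESeq2, which left 7439 genes without an adjusted p. Leaving out each library gave 0 to 2 higher and 0 to 3 lower. The replicate block gave 0 and 0 (smallest limma adjusted p 0.616). Same-numbered libraries correlated at -0.404, -0.0429 and -0.266 in their deviations. No such pair lies within the same set, so these values cannot show whether the numbers pair the libraries. The block leaves no residual with the set term. At 3838674 to 4800694 reads per library, values under about 3 reads are uncertain.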

Other observations

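Of 30 measured periportal genes, 4 were apart and higher and 9 apart and lower. By 2-fold 3 were higher (10%) and 1 lower (3.33%, near the 3.15% of all genes). Their median was 0.14 over the 7 libraries, 0.13 within controls, -0.07 within URI(+/D)Hep and -0.26 among the 4 libraries with both kinds of sex transcript. Otc, of the urea cycle, read 237, 452, 518 and 449 against 1013, 1035 and 879.6, and Sdsl, a serine dehydratase relative, read 451, 159, 129 and 132 and was lower in all 3 strongly cycling libraries, down to 42.9. Plasma carriers and apolipoproteins had 1 higher (3.85%) and 2 lower (7.69%) by 2-fold of 26 (28 listed, median 0.07), against 3.88% and 3.15% of all genes. Apoa5, a regulator of plasma triglycerides, read 8473, 6068, 4348 and 4386 against 1963, 3298 and 1739.5. The 22 measured clock genes had 1 higher and 1 lower by 2-fold (4.5% each), near the 3.88% and 3.15% of all genes. These were Wee1, also a mitotic kinase, at 32.6 to 75.8 against 98.4 to 132, and Per1 at 185 to 307 against 84.9 to 122.

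Of 28 measured hepatocyte transcription factors (29 listed), 1 was higher by 2-fold (3.57%, near the 3.88% of all genes) and 0 lower. Foxa2, a pioneer factor of liver genes, was apart but under 2-fold, at 277 to 333 against 434 to 522. Of 23 p53 targets, 3 were higher by 2-fold, of which Ckap2 and Gtse1 are mitotic genes and Eda2r, a receptor, differed by 1.07. Slc7a11, the cystine importer, was lower, at 36.7 to 50.4 against 6.44 to 12.4. It was the 1 member of 24 redox genes apart by 2-fold (4.17%, near the 3.15% of all genes). Of 26 measured endothelial genes, 1 was apart and higher (3.85%, against 11.5% of all genes) and 3 apart and lower (11.5%, near the 9.52% of all genes). Among them Lyve1 was lower, at 103 to 133 against 30.0 to 69.3. Kdr, a VEGF receptor, was higher under 2-fold, at 359 to 629 against 681 to 751.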
